A study of Mus musculus with 6 samples.

Results

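The osteoclast effector genes and the RANK system were examined as a group of 10 genes named by symbol: *Tnfsf11*, *Tnfrsf11a*, *Tnfrsf11b*, *Nfatc1*, *Dcstamp*, *Ocstamp*, *Atp6v0d2*, *Ctsk*, *Acp5* and *Mmp9*. All 10 were found among the 18152 genes of the expression table. RNA came from the inner enamel epithelium (IEE), the cell layer that gives rise to ameloblasts, of the mandibular first molar of mouse embryos on a C57BL/6J background at E18.5 (embryonic day). The control group was *Kdf1* fl/fl, in which both alleles of *Kdf1* are flanked by loxP sites and remain functional, and the mutant group was *K14-Cre;Kdf1* fl/fl, in which Cre is driven by the keratin 14 promoter, active in epithelium, and deletes the floxed gene there. Each group had 3 libraries, called control or mutant replicates 1 to 3, and the sample labels name the controls wild type. The tissue was cut from sections by laser capture microdissection, which can include cells at the border of the area. In bulk RNA of this kind, fewer cells of a type and less RNA per cell cannot be told apart.

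Osteoclasts are multinucleated cells of the monocyte lineage that resorb bone, and around a developing molar they widen the bony crypt and open the eruption path. RANKL, a ligand made by osteoblasts, stromal and dental follicle cells, binds its receptor RANK on precursors, and the decoy receptor osteoprotegerin (OPG) binds RANKL and blocks this contact. RANK signalling induces the transcription factor NFATc1, which switches on the genes for cell fusion, acid secretion and matrix digestion. Osteoclasts are not part of the enamel epithelium, and the genes are described here as they were measured in an epithelial capture.

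The library totals ranged from 14713918 to 16675133 counts, and levels are given as CPM (counts scaled to library depth) adjusted by TMM factors or, where genes are compared with each other, as TPM, which also accounts for transcript length. *Kdf1* was measured at 52.5, 44.3 and 52.7 CPM in control replicates 1, 2 and 3. It was at 0, 0.0629 and 0 CPM in the mutants, at least 259-fold lower when set against the floor of 3 counts per library (edgeR quasi-likelihood test, adjusted p = 0.000288). Epithelium was present in both groups, with *Krt5*, a basal keratin, between 2207 and 5787 CPM in the 6 libraries. One library stood apart for the genes described here: mutant replicate 1 had the highest level of all 6 libraries for 9 of the 10 genes, and in each of these 9 genes at least 2 times that of the next library. Over all 14131 genes tested, mutant replicate 1 was highest for 20.4% and at least 2 times the next library for 3.73%. Fold changes and counts of calls are therefore given with and without it.

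The sequences before the starts of 3 of these genes are shown as examples of a ligand and 2 effectors that were higher together, since NFATc1, PU.1, MITF, AP-1 and RUNX factors are known to act on such genes. Windows of 250 bases before the RefSeq start (GRCm38.p6) were used for 4 of the 10 genes, 6 windows in all. The windows were searched on both strands for TGGAAA (NFAT core), TGANTCA (AP-1), GAGGAA (PU.1 core), CACGTG and CATGTG (E-boxes) and TGTGGT (Runx core), and capitals mark each match, in either orientation. The *Ctsk* window lies at chr3:95498960-95499209 on the plus strand, the *Acp5* window at chr9:22130599-22130848 on the minus strand and the *Tnfsf11* window at chr14:78308044-78308293 on the minus strand, each written 5′ to 3′.
Ctsk: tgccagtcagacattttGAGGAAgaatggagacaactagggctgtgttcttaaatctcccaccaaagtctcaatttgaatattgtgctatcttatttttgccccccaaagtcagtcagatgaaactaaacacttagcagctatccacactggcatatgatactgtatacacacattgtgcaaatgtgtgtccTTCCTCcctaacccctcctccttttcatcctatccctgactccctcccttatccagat
Acp5: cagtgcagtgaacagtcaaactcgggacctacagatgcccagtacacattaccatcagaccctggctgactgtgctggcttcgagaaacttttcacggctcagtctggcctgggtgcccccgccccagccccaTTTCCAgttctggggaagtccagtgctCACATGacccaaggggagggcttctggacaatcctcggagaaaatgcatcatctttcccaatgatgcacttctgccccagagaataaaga
Tnfsf11: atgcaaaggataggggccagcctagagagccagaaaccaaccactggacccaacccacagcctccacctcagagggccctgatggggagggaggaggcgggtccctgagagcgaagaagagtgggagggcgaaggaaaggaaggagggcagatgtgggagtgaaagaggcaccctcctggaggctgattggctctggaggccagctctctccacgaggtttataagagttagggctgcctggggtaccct
The *Ctsk* window held GAGGAA 2 times, 233 and 58 bases before the RefSeq start. The bases after this start were not found in a GENCODE transcript of *Ctsk*, nor were those after the other 2 starts of *Acp5* in one of *Acp5*. Those after the starts of the *Tnfsf11*, *Tnfrsf11a* and printed *Acp5* windows were found. The *Acp5* window held TGGAAA 117 bases and CATGTG 90 bases before the start. The *Tnfsf11* window, that of *Tnfrsf11a* and those at the other 2 starts of *Acp5* held none of the 6 motifs. Among all 32851 windows of this length, 23.3% held GAGGAA, 18.6% held TGGAAA, 12.3% held CATGTG, 14% held TGTGGT, 6.75% held TGANTCA and 6.02% held CACGTG. A match of letters describes the window and is no measurement of binding.

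Of the 10 genes, 7 were higher in every mutant library than in every control library: *Tnfsf11*, *Tnfrsf11a*, *Ocstamp*, *Atp6v0d2*, *Ctsk*, *Acp5* and *Mmp9*. None was lower in every mutant library, and the groups overlapped for *Tnfrsf11b*, *Nfatc1* and *Dcstamp*. Among all genes tested, 14.5% were higher in every mutant library and 16.2% lower. None of the 10 genes met the criterion of a log2 fold change of at least 1 in size with an adjusted p of at most 0.05 in edgeR, which 0.142% of all genes tested met with a higher level in the mutants. Before adjustment, 7 of the 10 genes had p of at most 0.05 together with that fold change, against 7.19% of all genes with a higher level. DESeq2 called the same 7 genes higher, and 5.05% of all genes. On simulated counts DESeq2 called more unchanged genes than its adjusted p threshold allows, so its calls are the less strict. When edgeR was given the replicate block, 5 were called higher (*Tnfsf11*, *Ocstamp*, *Atp6v0d2*, *Ctsk* and *Mmp9*), and 4.16% of all genes. The block pairs libraries of the same number, a pairing that is assumed here and that the labels do not give. Without mutant replicate 1, an alternative chosen after the data had been seen, *Tnfsf11*, *Atp6v0d2*, *Ctsk* and *Mmp9* were called higher by DESeq2 (4 of the 10, and 2.42% of all genes) and with the replicate block (4, and 3.78% of all genes), and no gene of the 10 met the criterion in edgeR without the block. The median log2 fold change of the 9 genes tested was 2.65, and that of all genes tested was -0.00. These medians were 1.39 and 0.02 without mutant replicate 1. *Dcstamp* did not pass the filter on low counts, and *Ocstamp* passed it through the mutant libraries alone, since no control library reached the 0.627 CPM that 3 libraries had to reach.

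**Figure D1:**
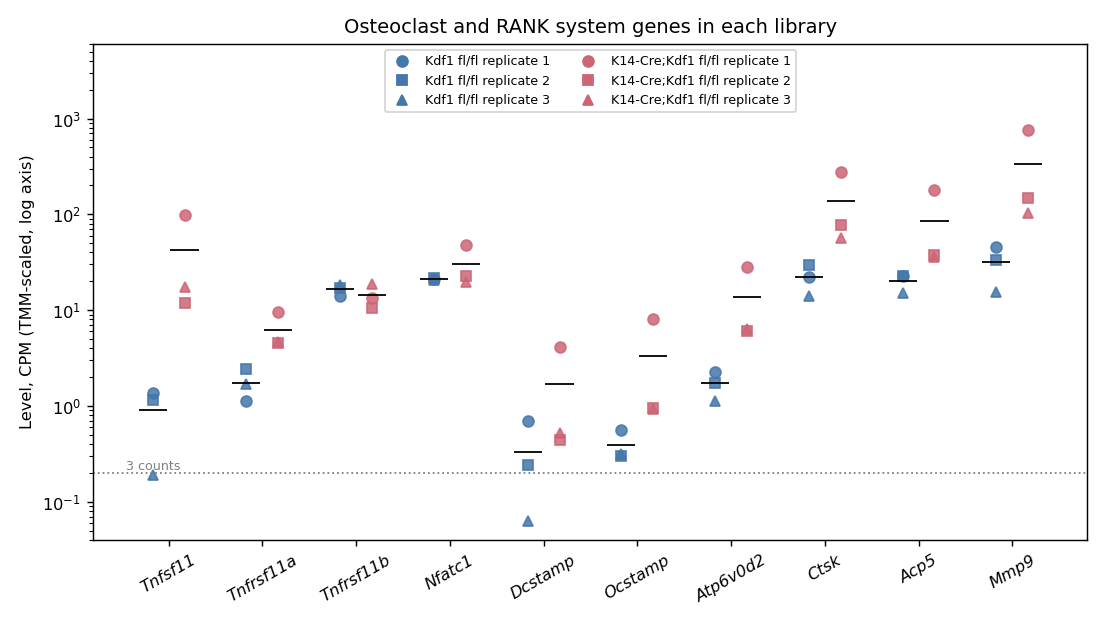
Level of each of the 10 genes in each of the 6 libraries, in TMM-scaled CPM on a log axis, with blue symbols for *Kdf1* fl/fl, red symbols for *K14-Cre;Kdf1* fl/fl, symbol shape for the replicate number and black lines for the group means. The dotted line marks 3 counts in the smallest library, and mutant replicate 1 (red circles) is the highest of the 6 libraries for 9 of the 10 genes.

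*Tnfsf11*, which encodes RANKL, was measured at 1.38, 1.15 and 0.189 CPM in control replicates 1, 2 and 3, the last being 3 counts. In mutant replicates 1, 2 and 3 it was at 98.3, 11.9 and 17.4 CPM. The groups did not overlap, and even the lowest mutant library was several times above the highest control. The fitted log2 fold change was 5.54 ± 1.06 (SE, n = 3 per group, edgeR adjusted p = 0.0637), the largest of the 9 genes tested. Without mutant replicate 1 the log2 fold change was 4.02 (edgeR adjusted p = 0.104). DESeq2 (adjusted p = 7.02e-05) and the replicate block in edgeR (adjusted p = 0.0107) placed it past the criterion, as did edgeR without mutant replicate 3 (adjusted p = 0.0491).

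*Tnfrsf11a*, which encodes the receptor RANK, was at 1.13, 2.42 and 1.70 CPM in the controls. The mutant libraries held 9.67, 4.53 and 4.61 CPM. Mutant replicates 2 and 3 lay close together, both above the highest control. On the fitted log2 scale the difference was 1.83 ± 0.44 (SE, n = 3 per group, edgeR adjusted p = 0.0815) and 1.39 without mutant replicate 1 (edgeR adjusted p = 0.152). DESeq2 called it (adjusted p = 0.00398), whereas the replicate block did not (edgeR adjusted p = 0.0622).

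*Tnfrsf11b*, which encodes the decoy receptor OPG, was at 13.99, 16.9 and 18.4 CPM in the controls and 13.5, 10.5 and 18.7 CPM in the mutants. The groups overlapped, and mutant replicate 1, highest for the other 9 genes, was not high here. Its fitted log2 fold change was -0.20 (95% interval -0.78 to 0.37, edgeR adjusted p = 0.641), so that the interval does not reach a change of 1 in either direction. Without mutant replicate 1 the log2 fold change was -0.15.

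Ligand, receptor and decoy were then set against each other per transcript length. In TPM, *Tnfsf11* was at 1.21, 1.07 and 0.15 in the controls and 95.8, 10.7 and 14.9 in the mutants, *Tnfrsf11b* at 9.46, 12.1 and 11.5 against 10.2, 7.26 and 12.3, and *Tnfrsf11a* at 0.39, 0.89 and 0.57 against 3.60, 1.61 and 1.57. The ratio of *Tnfsf11* to *Tnfrsf11b* was 0.128, 0.0887 and 0.0130 in control replicates 1, 2 and 3 and 9.41, 1.47 and 1.20 in mutant replicates 1, 2 and 3. In every control library the decoy transcript was the more abundant, and in every mutant library the ligand transcript was. The mean ratio was 0.0766 ± 0.0584 in the controls and 4.03 ± 4.67 in the mutants (SD, n = 3 each), and 1.34 in mutant replicates 2 and 3. The ratio of *Tnfsf11* to *Tnfrsf11a* was 3.10, 1.20 and 0.263 in the controls and 26.6, 6.62 and 9.46 in the mutants, again without overlap. These ratios are of transcripts in the captured tissue, with no statement on which cells held them, and no test was made of them.

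**Figure D2:**
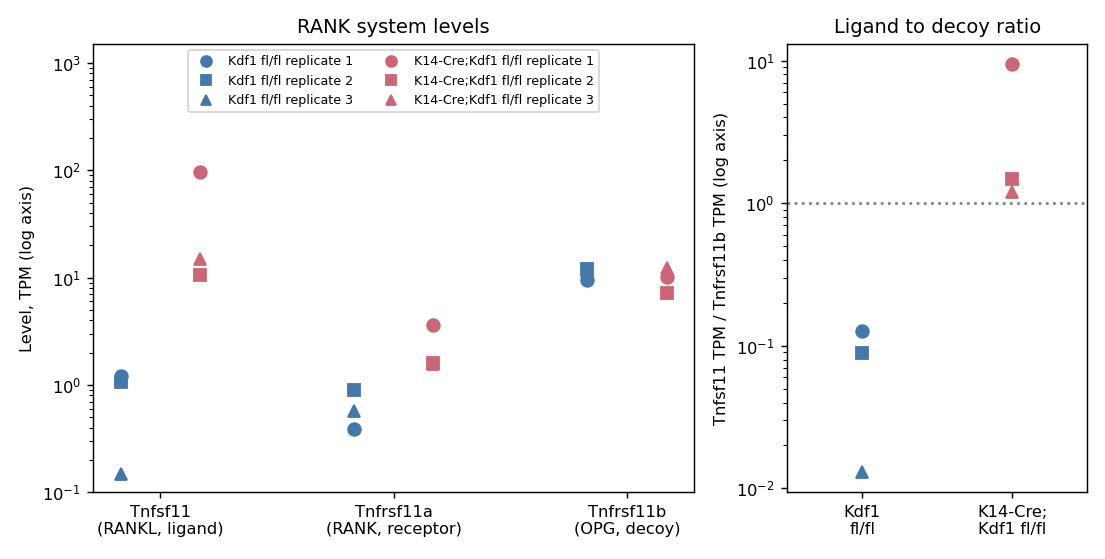
Left, levels of the ligand, receptor and decoy receptor transcripts in each library, in TPM on a log axis. Right, the ratio of *Tnfsf11* to *Tnfrsf11b* per library on a log axis, with a dotted line at equal levels: the 3 *Kdf1* fl/fl libraries lie between 0.0130 and 0.128 and the 3 *K14-Cre;Kdf1* fl/fl libraries between 1.20 and 9.41.

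*Nfatc1*, the transcription factor at the head of the osteoclast programme, was at 21.3, 21.6 and 20.7 CPM in the controls. It was at 48.2, 23.0 and 19.5 CPM in the mutants. Only mutant replicate 1 lay apart, and the other 2 mutant libraries were near the controls. A log2 fold change of 0.51 was fitted (95% interval -0.27 to 1.29, edgeR adjusted p = 0.378), and 0.02 without mutant replicate 1 (edgeR adjusted p = 0.952). *Nfatc1* is known to be expressed in endothelium as well.

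*Dcstamp* and *Ocstamp* encode membrane proteins that osteoclast precursors need to fuse. *Dcstamp* was counted 11, 4 and 1 times in the controls and 65, 7 and 8 times in the mutants, or 0.690, 0.242 and 0.0631 against 4.11, 0.440 and 0.527 CPM. The groups overlapped, because control replicate 1 was above mutant replicates 2 and 3. With the filter on low counts lifted, its log2 fold change was 2.34 (edgeR adjusted p = 0.267). The mean of mutant replicates 2 and 3 was 1.46 times the control mean. *Ocstamp* was at 0.565, 0.303 and 0.316 CPM in the controls and 8.09, 0.943 and 0.922 CPM in the mutants. Mutant replicates 2 and 3 rested on 15 and 14 counts and the controls on 5 to 9, so the separation outside mutant replicate 1 was of few reads. The log2 fold change was 3.05 ± 0.99 (SE, n = 3 per group, edgeR adjusted p = 0.130), past the criterion in DESeq2 (adjusted p = 0.0167) and with the replicate block (edgeR adjusted p = 0.0442), and 1.25 without mutant replicate 1 (edgeR adjusted p = 0.225).

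*Atp6v0d2* encodes the d2 subunit of the vacuolar proton pump, which is enriched in osteoclasts and acidifies the resorption pit. It was at 2.26, 1.76 and 1.14 CPM in the controls and 28.5, 6.04 and 6.39 CPM in the mutants. Every mutant library was clearly above the controls, mutant replicate 1 most of all. Its log2 fold change was 2.99 ± 0.70 (SE, n = 3 per group, edgeR adjusted p = 0.0782) and 1.87 without mutant replicate 1 (edgeR adjusted p = 0.111). It was called by DESeq2 (adjusted p = 0.000158) and with the replicate block (edgeR adjusted p = 0.0155).

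*Ctsk* encodes cathepsin K, the protease with which osteoclasts digest collagen, and is also expressed in some fibroblasts. It was at 22.3, 29.2 and 14.2 CPM in the controls and 279, 77.2 and 57.2 CPM in the mutants. The lowest mutant library remained above the highest control. The log2 fold change was 2.65 ± 0.63 (SE, n = 3 per group, edgeR adjusted p = 0.0808), with adjusted p = 6.91e-05 in DESeq2 and 0.0324 with the replicate block. It was 1.63 without mutant replicate 1 (edgeR adjusted p = 0.111), and without mutant replicate 3 *Ctsk* passed the criterion in edgeR (adjusted p = 0.0497).

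*Acp5* encodes tartrate-resistant acid phosphatase (TRAP), the enzyme by which osteoclasts are stained, and is found in macrophages too. It was at 22.5, 22.8 and 15.2 CPM in the controls and 180, 37.3 and 36.2 CPM in the mutants. Mutant replicates 2 and 3 nearly coincided. The fitted log2 fold change was 2.07 ± 0.65 (SE, n = 3 per group, edgeR adjusted p = 0.124), called in DESeq2 (adjusted p = 0.00466) but not with the replicate block (edgeR adjusted p = 0.0747). Without mutant replicate 1 it was 0.89 (edgeR adjusted p = 0.124), under the fold change of the criterion.

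*Mmp9* encodes gelatinase B, a protease of osteoclasts and of neutrophils. It was at 46.1, 33.6 and 15.6 CPM in the controls and 760, 148 and 104 CPM in the mutants. Every mutant library was above the highest control. The gene had a log2 fold change of 3.41 ± 0.84 (SE, n = 3 per group, edgeR adjusted p = 0.0841), with adjusted p = 0.00525 in DESeq2 and 0.0141 with the replicate block, and 2.00 without mutant replicate 1 (edgeR adjusted p = 0.113). Per transcript length *Mmp9* was at 27.4, 21.0 and 8.58 TPM in the controls and 502, 89.6 and 60.0 TPM in the mutants, while *Ctsk* was at 29.1, 40.4 and 17.2 against 406, 103 and 72.9 TPM and *Acp5* at 34.3, 36.8 and 21.5 against 316, 59.8 and 55.0 TPM. On this scale *Ctsk* was above *Mmp9* in all libraries but mutant replicate 1.

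**Figure D3:**
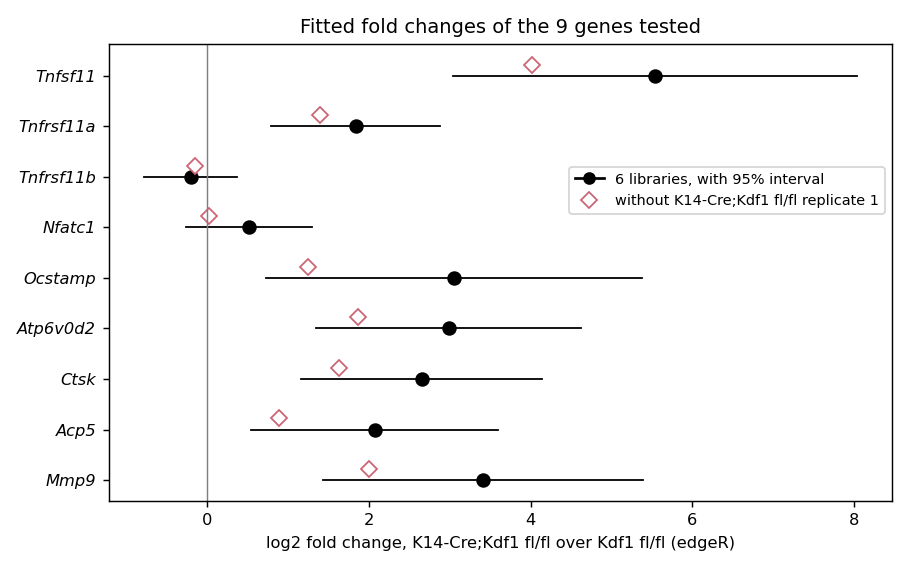
Fitted log2 fold changes (mutant over control, edgeR) of the 9 genes tested, with 95% intervals from all 6 libraries (filled circles and lines) and the estimate without mutant replicate 1 (open diamonds). The intervals of *Tnfrsf11b* and *Nfatc1* span 0, and the estimates of the other 7 genes are smaller without mutant replicate 1, with *Tnfsf11* going from 5.54 to 4.02.

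Among the 7 genes without overlap, the mean of mutant replicates 2 and 3 was 1.83 to 16.1 times the control mean, and mutant replicate 1 was 5.52 to 108 times the control mean. In mutant replicate 1 these genes were at 2.12 to 8.68 times the mean of the other 2 mutant libraries, least for *Tnfrsf11a* and most for *Ocstamp*. Control replicate 3 was the lowest control library for 5 of the 7 genes. Leaving out mutant replicate 1, 7 genes were higher without overlap, against 19.1% of all genes tested, a share that is larger with 3 against 2 libraries than the 14.5% with 3 against 3. Over the omission of each library in turn, 7 or 8 of the 10 genes were higher without overlap (16.5% to 23.5% of all genes), and without mutant replicate 3 *Tnfrsf11b* was lower without overlap, as were 26% of all genes.

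The genes closest in pattern to each member were taken by the root mean square difference of log2 CPM over the 6 libraries, centred on the controls, as a description. For *Tnfsf11* they were *Sfrp4* (0.42), *Fgf7* (0.69) and *Mmp13* (0.71), and for *Ctsk* they were *Glipr1* (0.10), *Fap* (0.11) and *Igf1* (0.15). For *Acp5* the closest was *Adamts1* (0.12), for *Mmp9* *Podnl1* (0.13), for *Atp6v0d2* *Thbd* (0.12), for *Tnfrsf11a* *Cyp1b1* (0.18) and for *Ocstamp* *Casp12* (0.28). *Nfatc1* was matched most closely by *Ppp1r18* (0.07) and *Tnfrsf11b* by *2010315B03Rik* (0.05). The smallest distance was 0.42 for *Tnfsf11* and at most 0.284 for each other member tested. The distance is not scaled for the size of a change or for counting noise, and *Tnfsf11* had the largest log2 fold change of the members tested.

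**Figure D4:**
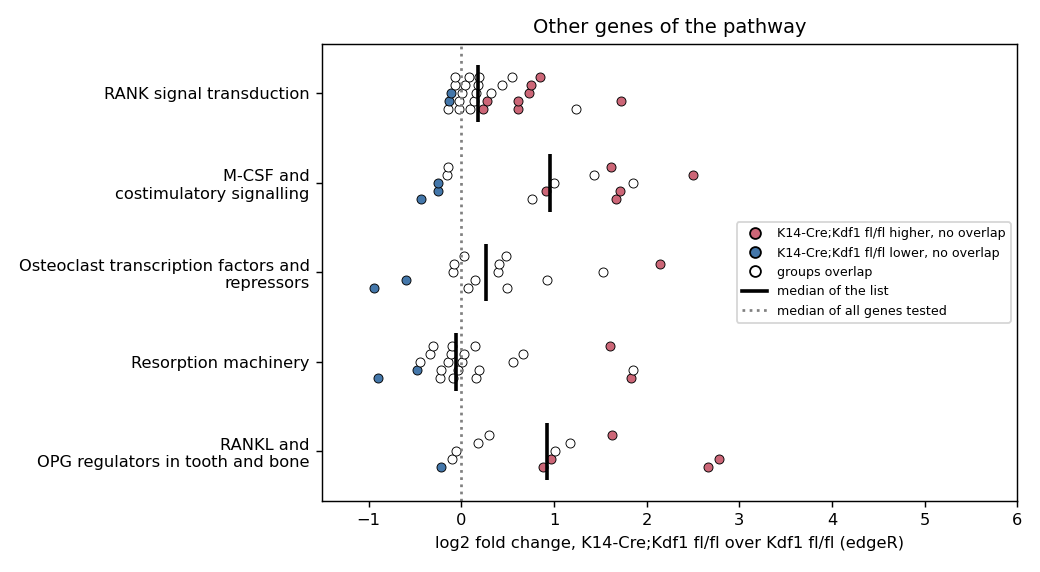
Log2 fold changes (mutant over control, edgeR) of the 89 other pathway genes tested, in 5 lists, with red points for genes higher in every mutant library, blue points for genes lower in every mutant library, white points for genes whose groups overlap, black bars for list medians and a dotted line at the median of all genes tested. The medians of M-CSF and costimulatory signalling (0.96) and of the RANKL and OPG regulators (0.93) lie to the right, and that of the resorption machinery (-0.06) lies near the median of all genes.

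Of 98 other genes of the pathway in 5 lists, 89 were tested. None met the criterion in edgeR. Before adjustment, 15 had p of at most 0.05 together with a log2 fold change of at least 1 in size. All 15 were higher in the mutants, as were 7.19% of all genes by the same measure. DESeq2 called 14 higher (15.7% of those tested, against 5.05% of all genes) and none lower, and edgeR with the replicate block called 8 higher (8.99%, against 4.16% of all genes) and none lower. Without mutant replicate 1, DESeq2 called 4 of the 89 higher (*Spi1*, *Tcirg1*, *Cxcl12* and *Runx2*), against 2.42% of all genes, and *Slc4a2* lower. The replicate block then called 5 of the 89 higher (*Fcer1g*, *Tcirg1*, *Cxcl12*, *Sfrp1* and *Runx2*), against 3.78% of all genes. Without overlap, 21 (23.6%) were higher and 10 (11.2%) lower in the mutants, against 14.5% and 16.2% of all genes tested, so the share lower was below that of all genes. Their median log2 fold change was 0.18, and 0.10 without mutant replicate 1.

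The RANK signal transduction list (TRAF adaptors, kinases and NF-kB subunits, median 0.18 over 27 genes tested, and 0.17 without mutant replicate 1) held 8 genes higher and 2 lower without overlap, where 14.5% and 16.2% of all genes tested were so. DESeq2 and the block each called 2 of its genes higher, against 5.05% and 4.16% of all genes, and none without mutant replicate 1. The calcineurin subunit gene *Ppp3ca*, whose product activates NFATc1, was at 105, 127 and 104 CPM in the controls and 163, 185 and 163 CPM in the mutants (log2 fold change 0.61, edgeR adjusted p = 0.0674). *Lgr4*, a second receptor for RANKL that is also an R-spondin receptor of epithelia, was at 60.5, 57.6 and 61.2 against 119, 100.2 and 81.5 CPM (log2 fold change 0.75, edgeR adjusted p = 0.0674). *Relb* had a log2 fold change of 0.73 and *Traf5* of 0.85, with edgeR adjusted p = 0.137 and 0.207. The log2 fold changes without mutant replicate 1 were 0.65 for *Ppp3ca*, 0.62 for *Lgr4*, 0.59 for *Relb* and 0.40 for *Traf5*.

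In the list of M-CSF and costimulatory signalling, which precursors need beside RANKL (median 0.96 over 14 genes tested), DESeq2 called 6 genes higher and the replicate block 2. Over all genes the shares were 5.05% and 4.16%. When mutant replicate 1 was left out, the median was 0.59, DESeq2 called no gene of the list higher and the block 1, *Fcer1g*. The shares over all genes were then 2.42% and 3.78%. *Tyrobp* (DAP12) and *Fcer1g*, adaptors of the costimulatory receptors, had log2 fold changes of 1.71 and 1.61 (edgeR adjusted p = 0.0947 and 0.0842), and 1.10 and 1.32 without mutant replicate 1. *Cbl* and *Src* were lower in every mutant library, with log2 fold changes of -0.43 and -0.26 (edgeR adjusted p = 0.0818 and 0.205), and -0.45 and -0.29 without mutant replicate 1.

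The transcription factor list had a median of 0.27 over 14 genes tested, which turned to -0.05 without mutant replicate 1. *Spi1*, which encodes PU.1 of the myeloid lineage, was at 2.07, 3.995 and 1.96 CPM in the controls and 21.7, 7.23 and 6.46 CPM in the mutants (log2 fold change 2.14, edgeR adjusted p = 0.0896, DESeq2 adjusted p = 0.00287), and its log2 fold change was 1.36 without mutant replicate 1. *Mitf* and *Tfeb*, related factors, were lower in every mutant library, with log2 fold changes of -0.94 and -0.60 (edgeR adjusted p = 0.0674 and 0.141), and -0.96 and -0.71 without mutant replicate 1.

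Of the resorption machinery (median -0.06 over 22 genes tested, and -0.08 without mutant replicate 1), 10 genes had a higher and 12 a lower fitted level in the mutants. *Itgb3*, the β3 integrin of the sealing zone, was at 8.10, 6.36 and 6.25 CPM in the controls and 52.5, 10.3 and 10.7 CPM in the mutants (log2 fold change 1.83, edgeR adjusted p = 0.151), and its log2 fold change was 0.62 without mutant replicate 1. *Tcirg1*, the a3 subunit of the osteoclast proton pump, had a log2 fold change of 1.60 (edgeR adjusted p = 0.0777, and 0.0332 with the replicate block), and of 1.14 without mutant replicate 1. The anion exchanger gene *Slc4a2* and the pump subunit gene *Atp6v1h* were lower in every mutant library, with log2 fold changes of -0.89 and -0.48 (edgeR adjusted p = 0.0591 and 0.133), and -0.99 and -0.44 without mutant replicate 1.

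The list of RANKL and OPG regulators had a median of 0.93 over 12 genes tested (0.77 without mutant replicate 1). Of its genes, 3 were called higher both by DESeq2 and with the replicate block, against 5.05% and 4.16% of all genes. Without mutant replicate 1, DESeq2 called 2 higher and the block 3, against 2.42% and 3.78% of all genes. *Cxcl12*, a chemokine for osteoclast precursors, was at 13.7, 14.3 and 6.76 CPM in the controls and 143, 67.7 and 29.2 CPM in the mutants (log2 fold change 2.78, edgeR adjusted p = 0.0692, and 0.00952 with the block), and its log2 fold change was 2.08 without mutant replicate 1. *Sfrp1*, a secreted Wnt antagonist, had a log2 fold change of 2.67 (edgeR adjusted p = 0.0875) and *Runx2*, a transcription factor of osteoblasts and dental mesenchyme, of 1.63 (edgeR adjusted p = 0.0674). *Sema3a*, a semaphorin that restrains osteoclasts, had a log2 fold change of 0.97 (edgeR adjusted p = 0.0891). The log2 fold changes were 2.35 for *Sfrp1*, 1.19 for *Runx2* and 0.76 for *Sema3a* when mutant replicate 1 was left out.

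Marker lists of other cells that the capture could hold moved between the groups as well. Summed over the list, macrophage and monocyte markers were at 72.9 to 173 TPM in the controls and 454, 210 and 133 TPM in mutant replicates 1, 2 and 3, and 9 of the 10 had a higher fitted level in the mutants. The sum in mutant replicate 3 lay inside the control range. In that library *Cd68* (11.9 CPM, controls up to 10.05) and *C1qb* (16.7 CPM, controls up to 15.7) were above every control. *Cx3cr1* was below every control there (1.19 CPM, controls from 2.07), and the other markers of the list lay inside the control range. Neutrophil lineage markers were at 18.9 to 25.2 TPM against 412, 171 and 155 TPM. All 7 tested were fitted higher and 5 were past the criterion in edgeR, which 0.142% of all genes met with a higher level. Without mutant replicate 1 their median log2 fold change was 2.87, and DESeq2 and the replicate block each called 6 higher. The shares of all genes called higher were then 2.42% and 3.78%. Endothelial markers were at 128 to 173 TPM against 502, 278 and 170 TPM, and the T cell markers did not exceed 1.42 TPM in any library.

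Among the mesenchymal lists, dental follicle and fibroblast markers were at 1037 to 2149 TPM in the controls and 3303, 2972 and 1736 TPM in the mutants. Osteoblast and bone markers were at 913 to 2209 against 1021, 817 and 1323 TPM, and papilla and odontoblast markers at 1186 to 5545 against 2184, 2649 and 2961 TPM. The papilla sum was carried by *Col1a1* and *Dspp*, both fitted lower in the mutants. *Dspp*, an odontoblast marker, was at 484, 1930 and 3486 CPM in the controls and lower in every mutant library, at 16.0, 76.5 and 448 CPM. Its log2 fold change was -3.45 (edgeR adjusted p = 0.152, DESeq2 adjusted p = 0.0484, and 0.00957 with the replicate block), and -2.89 without mutant replicate 1. The other 6 of the 8 genes were fitted higher, 4 of them without overlap. These 4 were the mesenchymal factors *Twist1*, *Msx1*, *Pax9* and *Lhx8*, with log2 fold changes of 2.23, 1.49, 2.81 and 2.57 (1.93, 1.33, 2.70 and 2.18 without mutant replicate 1). Of them, *Twist1* was past the criterion in edgeR. Of the follicle list 5 of 6 genes and of the osteoblast list 2 of 8 were fitted higher. The hypertrophic chondrocyte list was at 9.66 to 26.9 against 2423, 190 and 505 TPM. *Mmp13*, a collagenase that osteoblasts and other cells express as well, made up 2408 TPM in mutant replicate 1. It was at 21.7, 22.6 and 4.10 against 3022, 242 and 707 CPM. *Col2a1* and *Acan* were also higher in every mutant library, with log2 fold changes of 0.48 and 3.22 (0.48 and 2.33 without mutant replicate 1). *Col10a1* (at most 0.251 CPM) and *Ihh* (at most 0.659 CPM) did not pass the filter on low counts, and their groups overlapped. Dental epithelium markers were at 11752 to 43584 TPM in the controls and 3962, 3898 and 6310 TPM in the mutants, with all 9 fitted lower and 1 past the criterion in edgeR. No marker was at 0 in all libraries. Mutant replicate 1, the highest for the osteoclast genes, was also the highest for the macrophage, neutrophil, follicle, endothelial and T cell lists, and the part of these cells in the levels of the osteoclast and RANK genes was not tested.

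**Figure D5:**
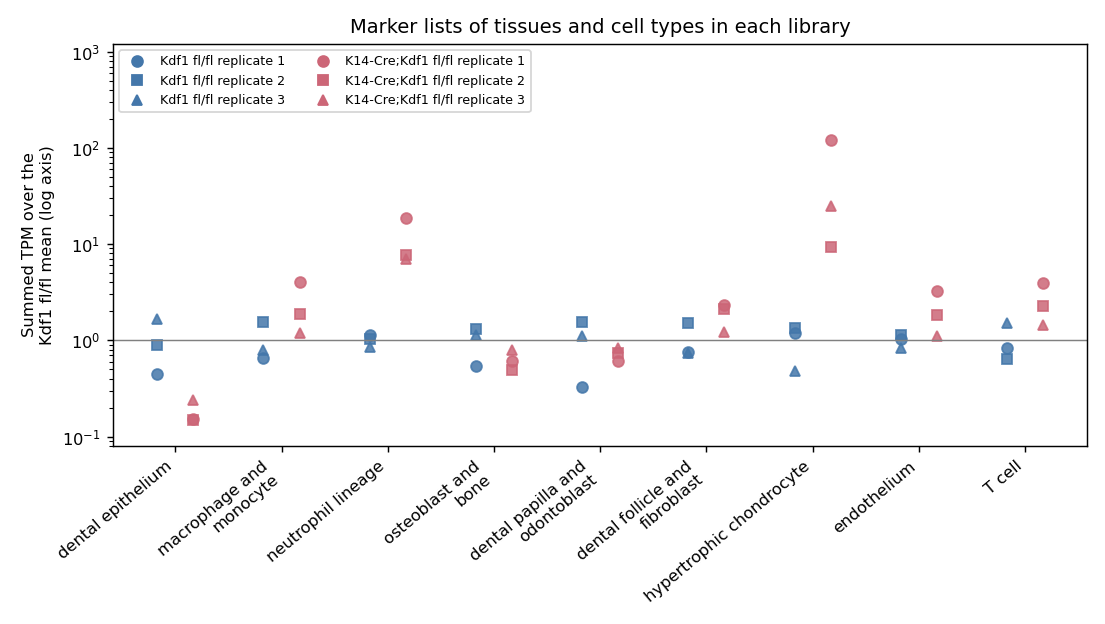
Summed TPM of 9 marker lists in each library, divided by the mean of the 3 *Kdf1* fl/fl libraries, on a log axis, with blue symbols for *Kdf1* fl/fl, red symbols for *K14-Cre;Kdf1* fl/fl and symbol shape for the replicate number. The neutrophil list and the chondrocyte list, mostly *Mmp13* in the mutants, lie above all controls in every mutant library. The dental epithelium list lies below all controls, and the sums of the osteoblast and papilla lists overlap between the groups.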

How the data were processed

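RNA from the IEE at E18.5 was sequenced by the authors, with 3 libraries per genotype. The submitters' processing notes name BWA 0.7.12, Picard 2.6.0 and StringTie. The genome build is not given in the sources used here. The authors deposited estimated counts per gene without normalisation, of which 10.9% to 11.5% per library were not whole. The deposited FPKM and TPM values were scaled by the authors for transcript length and depth. Their group means were not used.

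Estimated counts were rounded. In R 4.3.3, edgeR 4.0.16 kept 14131 genes (filterByExpr), scaled libraries by TMM (0.950 to 1.03) and compared the groups by robust quasi-likelihood F-tests, two-sided, with Benjamini-Hochberg adjustment over all genes tested. The threshold was that of the study's appendix. A count of 0 allows 3 counts, or 0.182 to 0.198 CPM, and this covers counting error only. The procedure was tested on simulated counts. There DESeq2 called more unchanged genes than its adjusted p threshold allows, and it was kept as an alternative only. The members and lists were chosen with earlier results of these data known. The pathway genes named were, per list, up to 4 of largest fold change among those whose groups did not overlap and whose higher group averaged 5 CPM or more. The markers named are among the 2 most abundant of a list, except *Cd68*, *Cx3cr1*, *Twist1*, *Msx1*, *Pax9*, *Lhx8*, *Acan*, *Col10a1* and *Ihh*, chosen after their values were seen. Nearest genes had at least 1 CPM on average, with an offset of 0.1 CPM.

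The labels call the 3 libraries of a group biological replicates and name no animal or litter, so p-values measure the spread between these libraries. No library was present in duplicate. Both groups use replicate numbers 1, 2 and 3, and the deviations of same-numbered libraries from their group means correlated at 0.132, 0.353 and 0.520 across genes. Correlations of differently numbered libraries are not given here, and the labels name no pairs. Without those correlations, the 3 values cannot show that same-numbered libraries are pairs, so the pairing is an assumption. A fit with the replicate block was made beside each comparison as an alternative. Alternatives were DESeq2 1.42.0, other scalings and filters, limma 3.58.1 (voom, and a trend on log2(TPM + 1) and log2(TPM + 0.1)) and leaving out each library.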

Additional observations from a re-analysis of the deposited data

How the results depend on the processing

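None of the 10 genes met the criterion in edgeR with other scalings, with other filters or in limma. The count was 7 with DESeq2, 7 at an unadjusted p and 5 with the replicate block (4, 6 and 4 without mutant replicate 1, for DESeq2, the unadjusted p and the block), and between 0 and 2 with 1 library left out, the 2 without mutant replicate 3. Of the other pathway genes, 14 were called by DESeq2, 15 at an unadjusted p and 8 with the block (5, 9 and 5 without mutant replicate 1), and between 0 and 4 with 1 library left out, the 4 without mutant replicate 3. Of all genes, 5.05% were called higher by DESeq2, 7.19% at an unadjusted p and 4.16% with the block. Without mutant replicate 1 these shares were 2.42%, 4.88% and 3.78%. The cause of the differences between these settings was not tested. The log2 fold change of *Tnfrsf11b* ranged from -0.43 to 0.000999 with 1 library left out, positive without mutant replicate 2. Of the values for single genes, 132 kept direction and side of the threshold and 14 passed it with an alternative. A minimum of 10 counts in every library left out *Tnfsf11*, *Ocstamp* and *Dcstamp*. The log2 ratio of the mean *Tnfsf11* to *Tnfrsf11b* ratios was 5.72 and ranged from 4.13 to 6.31 with 1 library left out. With 3 libraries a group and levels under 1 CPM, the depth limits what can be said of *Dcstamp* and *Ocstamp*.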
